A study of Mus musculus with 6 samples.

Results

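The chemokine system was read here as every listed gene whose name begins Ccl, Cxcl, Ccr, Cxcr or Ackr followed by a digit, with Cx3cl1, Cx3cr1 and Xcl1 added. This rule took 68 of the 34745 genes of the count tables, with 63 distinct names because some Ccl21 and Ccl27 copies share a name. There were 46 ligand genes, 18 signalling receptors and 4 atypical receptors. The samples were left ventricles of mice with myocardial infarction (MI), in which heart muscle dies because a coronary artery is blocked, and RNA was measured by sequencing. In the MI-DAPA group (3 libraries) mice with MI had been given dapagliflozin, a drug against diabetes and heart failure that blocks the glucose transporter SGLT2. In the MI-NS group (3 libraries) mice with MI had been given NS, an abbreviation that the labels do not spell out. Both groups carry the infarction, and the series used here has no group without it. The labels give no dose, time after infarction, strain, age or sex, and the infarct and the spared muscle are not kept apart. They call the libraries biological replicates without naming an animal, so a p-value measures only how far these libraries spread.

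Chemokines are small secreted proteins that steer white blood cells, and they are named CC, CXC, CX3C or XC by the spacing of their first cysteines. They bind receptors coupled to Gi proteins on leukocytes, while atypical receptors (the Ackr genes) take chemokines up without that signal and so shape how much ligand is present. In the infarcted heart, CC ligands of Ccr2 are known for drawing in monocytes, CXC ligands of Cxcr2 for drawing in neutrophils, and Cxcl12 with its receptor Cxcr4 for keeping progenitor and vascular cells in place.

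Library totals were 17207974 to 20563188 counts, and genes of the mitochondrial chromosome took 34.3% to 42.0% of them. A floor of 3 counts in a library corresponds to 0.133 to 0.178 CPM (counts scaled to a common library size after adjustment by the trimmed mean of M values, TMM), and this covers counting error only. Of the 68 members, 28 passed the filter on low counts and were tested, namely 19 ligands, 6 receptors and 3 atypical receptors. Another 22 members had some counts but stayed below the filter, and 18 had no count in any library. The filter asked for about 0.501 CPM, before TMM adjustment, in at least 3 libraries. All MI-DAPA libraries reached this for 20 of the 28 tested members. Ccl8, Ccl12, Ccr1 and Cxcl10 reached it in all MI-NS libraries but not in all MI-DAPA libraries, so their being tested is not independent of their direction. Ccl25, Cxcl2, Cxcl5 and Cxcr2 reached it in 1 MI-DAPA library and 2 MI-NS libraries.

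In MI-DAPA ventricles 8 of the 28 tested members fell and 0 rose against MI-NS. They were Cxcl10, Ccl8, Ccl2, Ackr2, Cx3cl1, Cxcl16, Ccl9 and Cxcl14, with falls of 1.65-fold to 3.40-fold. The test was the quasi-likelihood F test of edgeR, adjusted by the Benjamini-Hochberg method over the 13940 genes tested, and calls were made at an adjusted p under 0.05. Over all tested genes, 7.83% were called lower and 8.69% higher, against 28.6% lower and 0 higher among the tested members. Without the 4 members that reached the filter's level in all MI-NS but not all MI-DAPA libraries, 6 of 24 were lower. At an unadjusted p under 0.05 there were 11 members, 1 of them higher (Ackr3), and DESeq2 also called 8 lower and 0 higher. Log2 fold changes were below 0 for 25 of the 28 tested members, the exceptions being Ackr3, Ccl11 and Ccl24, and scaling by library totals alone also put Ccl11 below 0. The median log2 fold change of the tested members was -0.72, and that of all tested genes was -0.02. All MI-DAPA libraries lay below all MI-NS libraries for 12 of the 28 (42.9%), against 18.5% of all tested genes, and all lay above for 1 (Ackr3), against 18.4% of all tested genes. The 12, the 25 and the median include members whose testing is not independent of their direction. Ccl8, Ccl12 and Cxcl10 are such members among the 12, and Cxcl10 and Ccl8 had the largest called falls. MI-NS replicate 1 was the highest of the 6 libraries for 17 of the 28 tested members, while it was highest for 17.1% of all tested genes. No MI-DAPA library was the highest for any tested member except replicate 3, which was highest for 3.

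**Figure D1:**
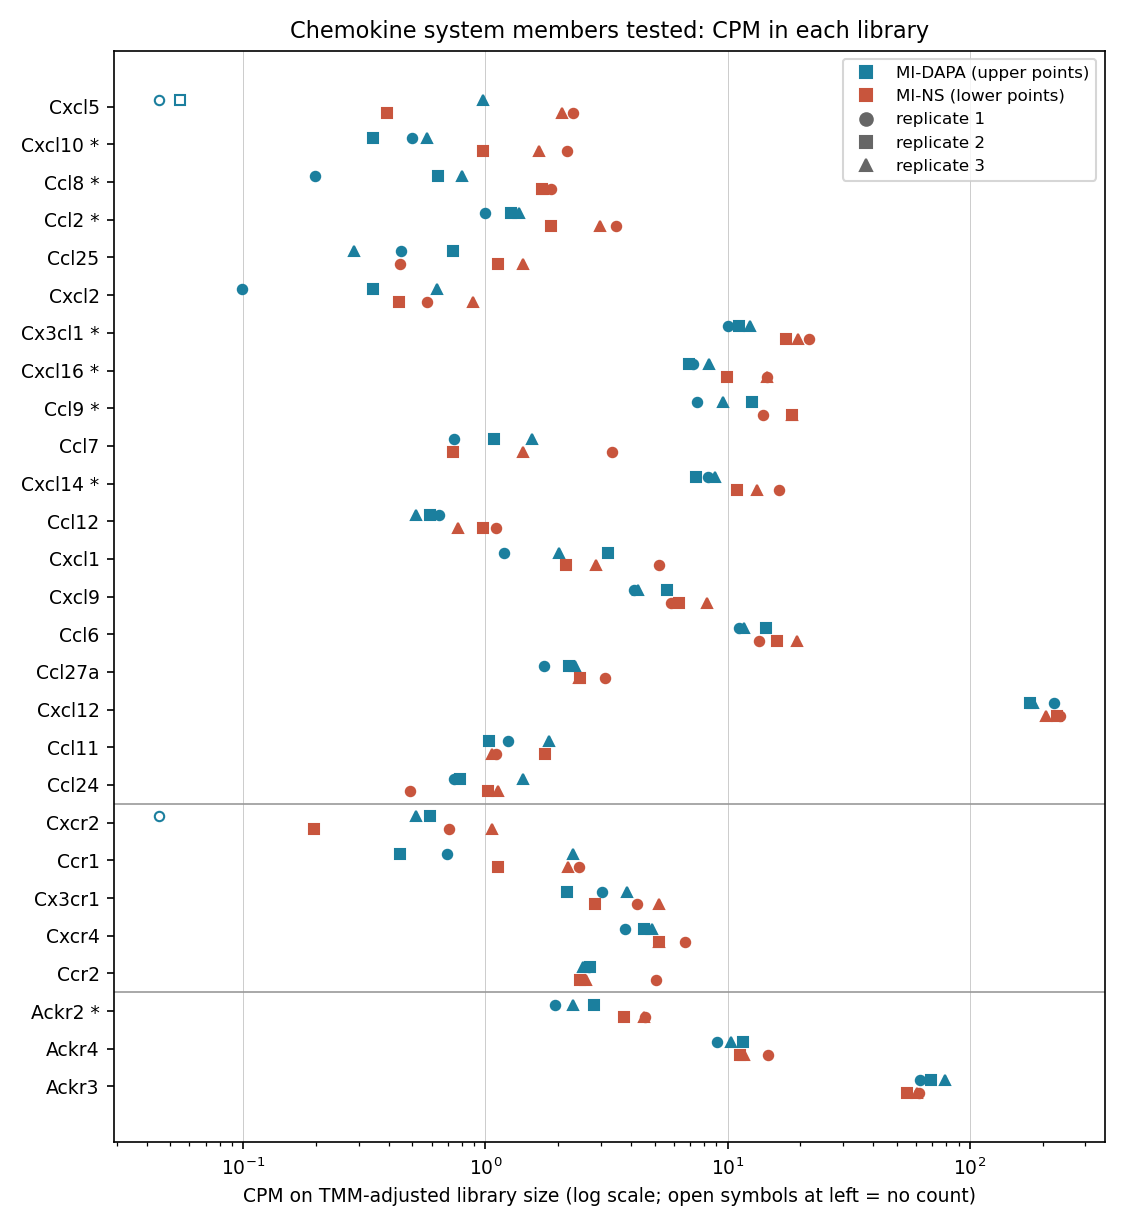
CPM in each library (log axis) for 27 of the 28 tested members, with MI-DAPA libraries as the upper points and MI-NS libraries as the lower points of each gene. Ligands are above the first line, signalling receptors between the lines and atypical receptors at the bottom. An asterisk marks the 8 members called lower, for which the groups do not overlap, and open symbols at the left mark libraries with no count.

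The CC ligands that act on monocytes lie together on chromosome 11 (mm10). Ccl2, the main ligand of Ccr2 (ENSMUSG00000035385, chr11:82035571-82037453), had 20, 26 and 24 counts in MI-DAPA replicates 1 to 3, against 78, 38 and 50 counts in MI-NS replicates 1 to 3. The same replicate order is used for every list of library values. Every MI-DAPA library was below every MI-NS library, and MI-NS replicate 1 was the highest. Ccl2 averaged 1.22 ± 0.200 CPM in MI-DAPA and 2.77 ± 0.818 CPM in MI-NS (SD, n = 3 each), a fall of 1.18 ± 0.30 on the log2 scale (SE), or 2.27-fold, with an edgeR adjusted p of 0.0290. This call held with MI-NS replicate 2 left out and with no other library left out. The edgeR adjusted p was 0.103, 0.0646 and 0.0644 without MI-DAPA replicates 1, 2 and 3, and it was 0.0811 and 0.0804 without MI-NS replicates 1 and 3. Over the whole gene, Ccl2 overlaps an antisense gene model, Gm17268, that had no count.

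Ccl8, which in mice acts through Ccr8 (ENSMUSG00000009185, chr11:82115185-82116799), had 4, 13 and 14 counts in MI-DAPA and 42, 35 and 29 counts in MI-NS. The MI-NS libraries were close to each other, at 1.77 ± 0.083 CPM, and the MI-DAPA libraries lay below them at 0.548 ± 0.313 CPM (SD, n = 3 each), with replicate 1 the lowest. Ccl8 fell by 1.70 ± 0.41 on the log2 scale, or 3.25-fold, with an edgeR adjusted p of 0.0262. The edgeR adjusted p was 0.0519 without MI-DAPA replicate 2, and it was 0.0591, 0.0551 and 0.0650 without MI-NS replicates 1, 2 and 3. Ccr8 itself had a single count, in MI-DAPA replicate 2.

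The neighbouring ligands of the same cluster did not pass the test. Ccl12, another ligand of Ccr2, had 13, 12 and 9 counts in MI-DAPA and 25, 20 and 13 counts in MI-NS. Its CPM did not overlap between the groups, and its log2 fold change was -0.71 ± 0.32 with an edgeR adjusted p of 0.166. Ccl7, which also binds Ccr2, had 15, 22 and 27 counts in MI-DAPA and 75, 15 and 24 counts in MI-NS. A single library, MI-NS replicate 1, stood above the other 5, and the log2 fold change of -0.73 ± 0.53 (edgeR adjusted p 0.389) became 0.07 without it. Ccl11, an eotaxin that acts on eosinophils through Ccr3, had 25, 21 and 32 counts in MI-DAPA against 25, 36 and 18 counts in MI-NS, and the groups overlapped (log2 fold change 0.05 ± 0.33). Ccl1, at the end of the cluster, had no count. The cluster thus held 6 members between positions 82035571 and 82305690, of which 5 were tested and 2 fell. Over all tested genes 7.83% were called lower, and the testing of Ccl8 and Ccl12 is not independent of their direction.

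A second group of CC ligands on chromosome 11, between positions 83525778 and 83664683, held Ccl5, Ccl9, Ccl6, Ccl3 and Ccl4. Ccl9, a ligand of Ccr1 found in rodents (ENSMUSG00000019122, chr11:83572919-83578636), was at 7.502, 12.6 and 9.60 CPM in MI-DAPA and at 14.0, 18.5 and 18.5 CPM in MI-NS. The highest MI-DAPA library came near the lowest MI-NS library but did not reach it. Ccl9 fell by 0.78 ± 0.19 on the log2 scale, or 1.71-fold, with an edgeR adjusted p of 0.0286. Without MI-DAPA replicates 1 and 3 in turn the edgeR adjusted p was 0.0859 and 0.0901, and without MI-NS replicates 2 and 3 it was 0.0780 and 0.0839. Ccl6, a related myeloid ligand, was at 11.1, 14.5 and 11.7 CPM in MI-DAPA and at 13.5, 15.9 and 19.4 CPM in MI-NS. Its groups overlapped, since MI-DAPA replicate 2 was above MI-NS replicate 1, and the log2 fold change was -0.38 ± 0.16 (edgeR adjusted p 0.131).

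The other ligands of that group were too low to test. Ccl5, made by T cells and platelets among others, had 6, 8 and 7 counts in MI-DAPA and 22, 20 and 7 counts in MI-NS. Ccl3 had 4, 1 and 11 counts in MI-DAPA and 4, 4 and 12 in MI-NS, and Ccl4 had 2, 3 and 5 in MI-DAPA and 3, 2 and 7 in MI-NS. The groups overlapped for Ccl3 and Ccl4, and for Ccl5 MI-NS replicate 3 was about as low as the MI-DAPA libraries.

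The ligands of Cxcr2, which draw in neutrophils, did not pass the test. Cxcl1 had 24, 65 and 35 counts in MI-DAPA and 118, 44 and 48 counts in MI-NS. MI-NS replicate 1 was far above the rest and MI-DAPA replicate 2 exceeded the other MI-NS libraries in counts (log2 fold change -0.68 ± 0.42, edgeR adjusted p 0.300). Cxcl2 had 2, 7 and 11 counts in MI-DAPA and 13, 9 and 15 counts in MI-NS, with overlapping CPM (log2 fold change -0.83 ± 0.58, edgeR adjusted p 0.372).

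Cxcl5 had the most negative fitted value of any tested member and did not pass the test. It had 0, 0 and 17 counts in MI-DAPA and 52, 8 and 35 counts in MI-NS. MI-DAPA replicates 1 and 2 had no Cxcl5 count, whereas MI-DAPA replicate 3 was above MI-NS replicate 2. The log2 fold change was -2.37 ± 1.08 and the edgeR adjusted p 0.169. Without MI-DAPA replicate 3 the remaining MI-DAPA libraries had no count, and the edgeR adjusted p was 0.0376. Cxcl3, in the same chromosome 5 cluster, had 0, 0 and 2 counts in MI-DAPA and 1, 2 and 3 counts in MI-NS. In MI-DAPA their receptor Cxcr2 had 0, 12 and 9 counts, against 16, 4 and 18 counts in MI-NS. The groups overlapped (log2 fold change -0.81 ± 0.85, edgeR adjusted p 0.553).

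**Figure D2:**
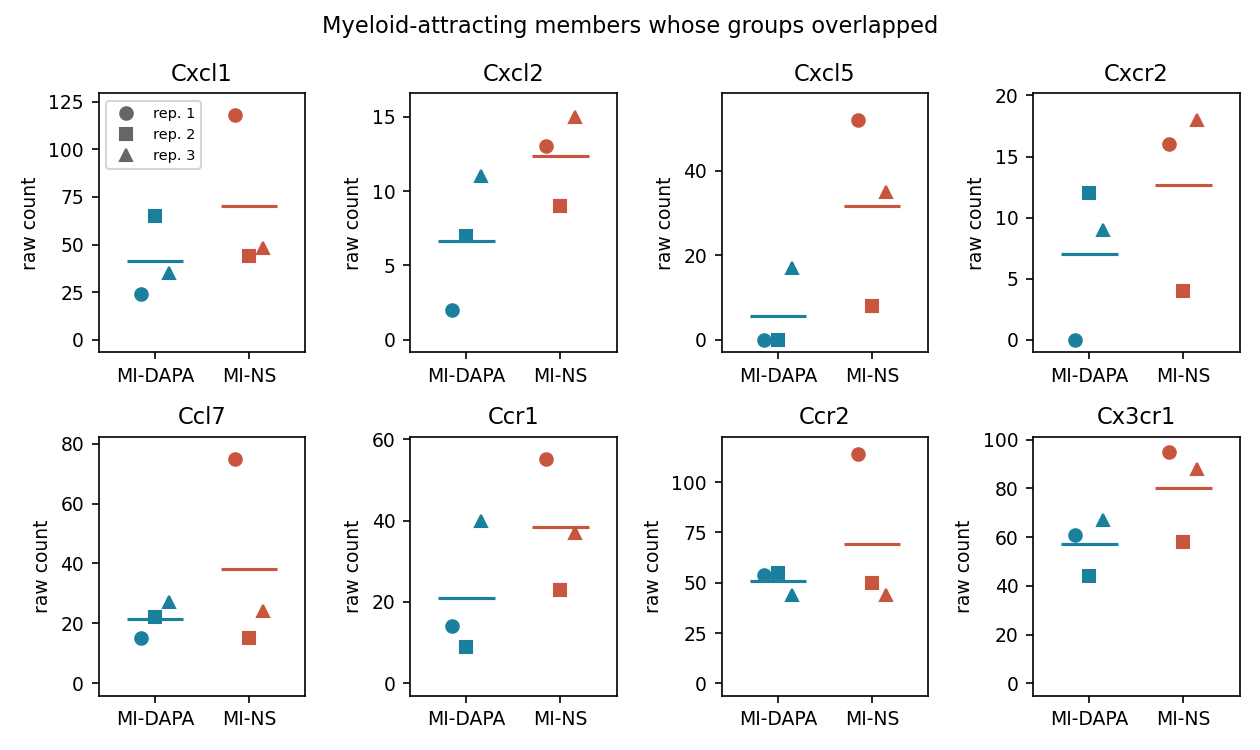
Raw counts of 8 tested members with roles in drawing in monocytes and neutrophils, chosen because their groups overlapped. MI-DAPA is at the left and MI-NS at the right of each panel, with a horizontal line at each group's mean. Members with such roles whose groups did not overlap in CPM, Ccl2, Ccl9 and Ccl12 among them, are not shown. MI-NS replicate 1 is the highest library for Cxcl1, Cxcl5, Ccl7, Ccr1, Ccr2 and Cx3cr1 in these counts.

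The ligands of Cxcr3 are induced by interferon and attract T cells and NK cells. Cxcl10 (ENSMUSG00000034855, chr5:92346638-92348889) had 10, 7 and 10 counts in MI-DAPA and 49, 20 and 28 counts in MI-NS. The lowest MI-NS library was above the highest MI-DAPA library, and MI-NS replicate 1 was the highest of all. Cxcl10 averaged 0.472 ± 0.117 CPM in MI-DAPA and 1.61 ± 0.598 CPM in MI-NS (SD, n = 3 each), a fall of 1.77 ± 0.40 on the log2 scale, or 3.40-fold, with an edgeR adjusted p of 0.0201. The edgeR adjusted p was 0.0676 and 0.0592 without MI-DAPA replicates 1 and 2, and it was 0.0598 and 0.0572 without MI-NS replicates 1 and 3. All 2252 bases of Cxcl10 lie within Art3, which is on the opposite strand and had a mean count of 2957 in MI-DAPA and 2106 in MI-NS. This overlap is between whole gene spans, and shared exons were not examined. The sources used here do not say whether reads were assigned by strand, and whether Art3 reads entered the Cxcl10 counts was not tested.

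Cxcl9, the next gene, had 83, 114 and 74 counts in MI-DAPA and 132, 128 and 138 counts in MI-NS. Its groups did not overlap, but the log2 fold change of -0.53 ± 0.19 did not pass the threshold (edgeR adjusted p 0.0929). Cxcl11 had 2, 2 and 0 counts in MI-DAPA and none in MI-NS. Cxcr3, the receptor of all of them, had none in MI-DAPA and 2, 0 and 0 counts in MI-NS.

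Cx3cl1 and Cxcl16 are made as transmembrane proteins that can hold leukocytes on the vessel wall or be shed as attractants. Cx3cl1, known as fractalkine and made by endothelium among other cells (chr8:94772009-94782423), was at 10.04, 11.2 and 12.4 CPM in MI-DAPA and at 21.6, 17.4 and 19.5 CPM in MI-NS. The groups were well apart, with replicates within each group closer to each other than to the other group. Cx3cl1 fell by 0.80 ± 0.12 on the log2 scale, or 1.75-fold, with an edgeR adjusted p of 0.00553, the smallest among the members. It was the only member called with each of the 6 libraries left out in turn, the highest edgeR adjusted p being 0.0265. With replicate 3 of both groups left out its edgeR adjusted p was 0.0781. Its receptor Cx3cr1, carried by monocytes and macrophages, had 61, 44 and 67 counts in MI-DAPA and 95, 58 and 88 counts in MI-NS, and the groups overlapped (log2 fold change -0.44 ± 0.28, edgeR adjusted p 0.324). The listed span of Cx3cr1 contains several other genes, Xirp1 and Gorasp1 among them on the same strand, so its counts are uncertain.

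Cxcl16, a ligand of Cxcr6 (chr11:70453983-70459984), was at 7.204, 6.94 and 8.39 CPM in MI-DAPA and at 14.5, 9.96 and 14.6 CPM in MI-NS. All MI-DAPA libraries were below MI-NS replicate 2, the lowest of its group. Cxcl16 fell by 0.79 ± 0.17 on the log2 scale, or 1.73-fold, with an edgeR adjusted p of 0.0171. The edgeR adjusted p was 0.0671 and 0.0511 without MI-DAPA replicates 1 and 2, and 0.0591 without MI-NS replicate 3. The gene span of Zmynd15 overlaps 552 of its bases on the opposite strand, with a mean count of 47.0 in MI-DAPA and 97.7 in MI-NS. Whether Zmynd15 reads entered the Cxcl16 counts was not tested. Cxcr6 had 4, 3 and 1 counts in MI-DAPA and 11, 8 and 8 counts in MI-NS. It stayed below the filter, and in a fit without the filter its edgeR adjusted p was 0.155. It too lies opposite another gene, Fyco1, with a mean count of 8608 in MI-DAPA and 4864 in MI-NS.

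The remaining ligands are mostly made without an inflammatory trigger. Cxcl14, a ligand of stromal and epithelial cells whose receptor is not settled (chr13:56288647-56296551), was at 8.30, 7.38 and 8.91 CPM in MI-DAPA and at 16.3, 10.9 and 13.2 CPM in MI-NS. The MI-DAPA libraries were tightly grouped below the lowest MI-NS library. Cxcl14 fell by 0.72 ± 0.16 on the log2 scale, or 1.65-fold, with an edgeR adjusted p of 0.0200. The edgeR adjusted p was 0.0672 and 0.0592 without MI-DAPA replicates 1 and 2, and 0.0533 without MI-NS replicate 3.

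Cxcl12, the ligand of Cxcr4, was at 222.8, 176.9 and 183.1 CPM in MI-DAPA and at 235.3, 230.0 and 206.9 CPM in MI-NS. MI-DAPA replicate 1 was above MI-NS replicate 3, so the groups overlapped, and the log2 fold change was -0.21 ± 0.10 (edgeR adjusted p 0.200). Ccl24, another ligand of Ccr3, had 15, 16 and 25 counts in MI-DAPA and 11, 21 and 19 counts in MI-NS, and the groups overlapped (log2 fold change 0.17 ± 0.42). The other tested ligands, Ccl25 and Ccl27a, had log2 fold changes of -0.97 ± 0.52 and -0.35 ± 0.22, with edgeR adjusted p of 0.238 and 0.325. The lymphoid ligands Ccl19 and Ccl21a had no count, which at the floor allows up to 0.178 CPM in a library, and Cxcl13 had 0, 3 and 0 counts in MI-DAPA and 13, 2 and 2 counts in MI-NS.

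**Figure D3:**
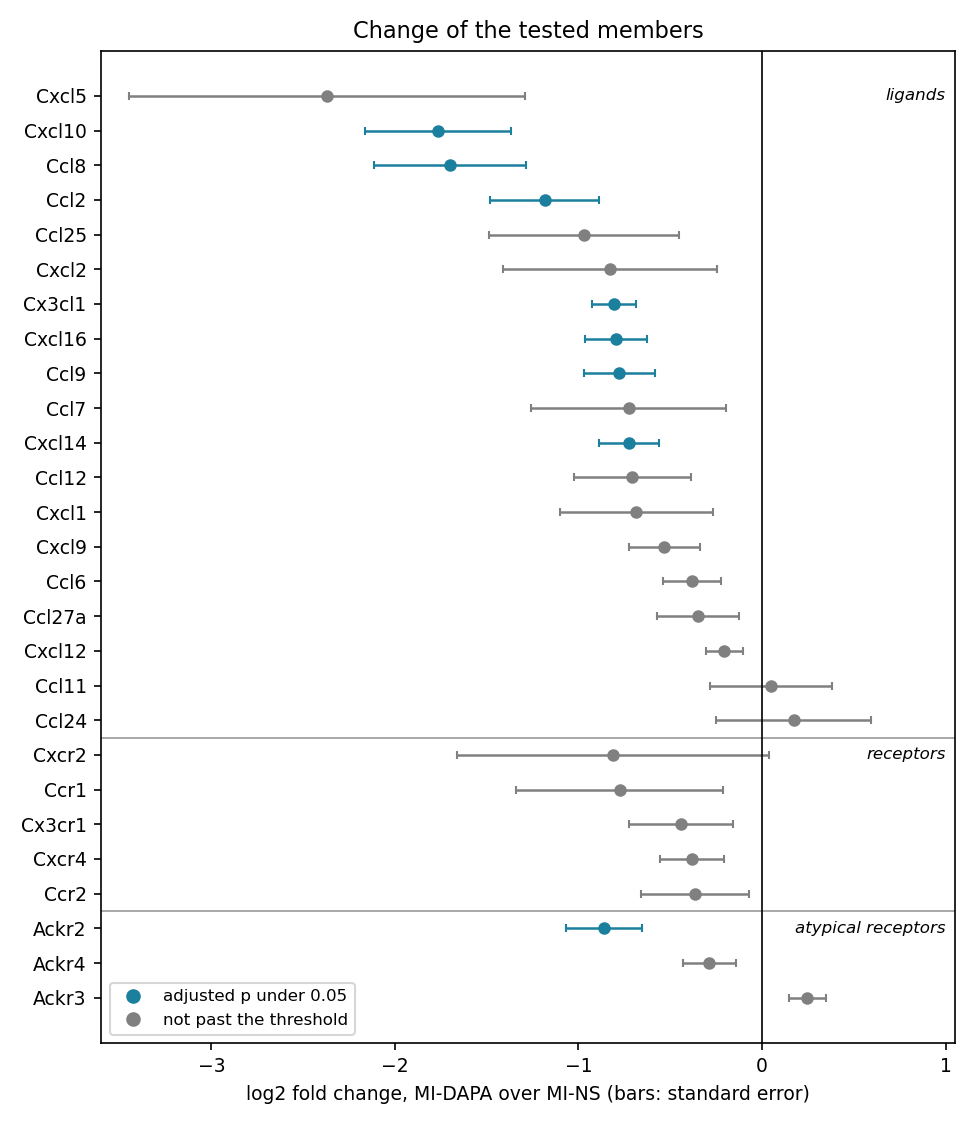
Log2 fold changes of 27 of the 28 tested members (MI-DAPA over MI-NS; bars are standard errors), ordered within ligands, receptors and atypical receptors. Members with an edgeR adjusted p under 0.05 are in blue; these span -1.77 (Cxcl10) to -0.72 (Cxcl14), and 24 of the 27 points lie left of 0.

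None of the 6 tested signalling receptors passed the test, although all 6 fitted values were below 0, with a median log2 fold change of -0.45. Ccr2, the monocyte receptor of Ccl2, had 54, 55 and 44 counts in MI-DAPA and 114, 50 and 44 counts in MI-NS. MI-NS replicate 1 was apart from the other 5 libraries, which lay close together, and the log2 fold change of -0.36 ± 0.29 (edgeR adjusted p 0.437) became 0.06 without it. Ccr1 had 14, 9 and 40 counts in MI-DAPA and 55, 23 and 37 counts in MI-NS (log2 fold change -0.78 ± 0.56, edgeR adjusted p 0.386). Here MI-DAPA replicate 3 was among the MI-NS values. With each library left out in turn the log2 fold change was -1.72 to -0.37 and the edgeR adjusted p 0.0567 to 0.686, the lowest of both without MI-DAPA replicate 3. Cxcr4 was at 3.78, 4.53 and 4.88 CPM in MI-DAPA and at 6.70, 5.199 and 5.23 CPM in MI-NS. It was the only tested signalling receptor whose groups did not overlap (log2 fold change -0.38 ± 0.18, edgeR adjusted p 0.173).

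Of the 3 tested atypical receptors 1 fell. Ackr2, which takes up inflammatory CC chemokines including Ccl2 (chr9:121898464-121911064), was at 1.94, 2.81 and 2.30 CPM in MI-DAPA and at 4.57, 3.73 and 4.52 CPM in MI-NS. All MI-DAPA libraries were below all MI-NS libraries. Ackr2 fell by 0.86 ± 0.20 on the log2 scale, or 1.82-fold, with an edgeR adjusted p of 0.0246. The edgeR adjusted p was 0.0871 and 0.0749 without MI-DAPA replicates 1 and 3, and it was 0.0588 and 0.0732 without MI-NS replicates 1 and 3.

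Ackr3, which takes up Cxcl12, was at 62.1, 69.2 and 78.9 CPM in MI-DAPA and at 61.6, 55.2 and 60.4 CPM in MI-NS. It was the only tested member with every MI-DAPA library above every MI-NS library, by a narrow margin between replicates 1 of both groups. The log2 fold change was 0.25 ± 0.10, with an unadjusted p of 0.0373 and an edgeR adjusted p of 0.129, so it was not called. Ackr4, which takes up Ccl19, Ccl21 and Ccl25, had 182, 235 and 180 counts in MI-DAPA and 332, 230 and 197 counts in MI-NS. The groups overlapped (log2 fold change -0.29 ± 0.15, edgeR adjusted p 0.213). Ackr4 lies opposite Acad11, which had a mean count of 3330 in MI-DAPA and 2180 in MI-NS. Ackr1, the atypical receptor of venular endothelium, had 2, 5 and 5 counts in MI-DAPA and 30, 9 and 6 counts in MI-NS. It stayed below the filter, and in a fit without the filter its edgeR adjusted p was 0.111.

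**Figure D4:**
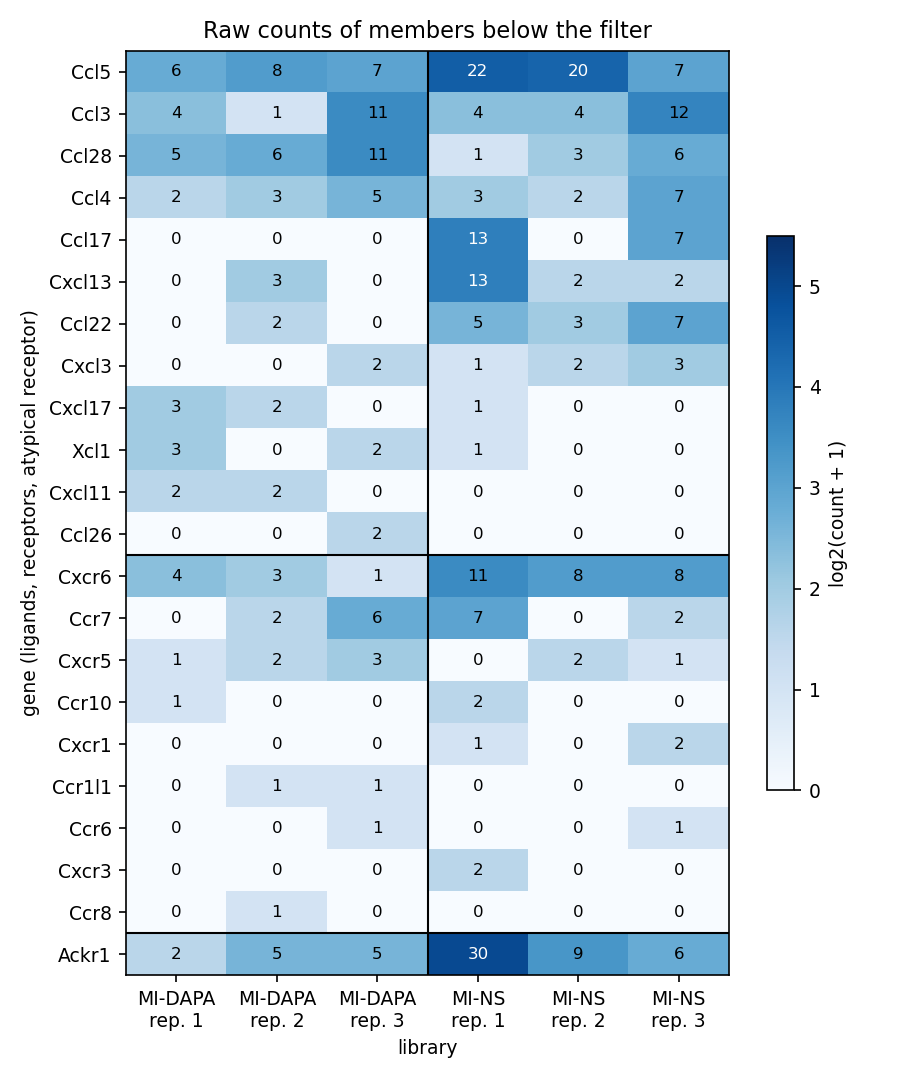
Raw counts of the 22 members below the filter that had at least 1 count, in each library (MI-DAPA at the left, MI-NS at the right; colour is log2 of the count plus 1). The highest single count is 30, for Ackr1 in MI-NS replicate 1, and 12 of the 22 members never exceed 3 counts.

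Among the 22 members below the filter, the summed count was lower in MI-DAPA for 13, higher for 8 and equal for 1. Ccl17, a ligand of Ccr4, had no count in MI-DAPA and 13, 0 and 7 counts in MI-NS. Ccr7, the receptor of Ccl19 and Ccl21, had 0, 2 and 6 counts in MI-DAPA and 7, 0 and 2 in MI-NS, and Xcl1, a ligand of T cells and NK cells, had 3, 0 and 2 in MI-DAPA and 1, 0 and 0 in MI-NS. The counts of Ccl17, Ccr7 and Xcl1 do not separate the groups. For Ccl5, Ccl22, Cxcr6 and Ackr1 all MI-DAPA libraries lay below all MI-NS libraries in CPM. Such a pattern held for 18.5% of all tested genes, so it does not set the 22 members apart. In a fit without the filter, 0 of the 22 passed, the smallest edgeR adjusted p being 0.0713 for Ccl17. The 18 members with no count included Ccr3, Ccr4 and Ccr9 besides Ccl1, Ccl19, Ccl20, Cxcl15 and the Ccl21 copies. For several of these ligands, near-identical copies exist and the sources used here do not say how shared reads were counted.

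In CPM per kb of exon, which allows levels of members to be set side by side, Cxcl12 was the highest, at 23.8 in MI-DAPA and 27.4 in MI-NS, followed by Ackr3 at 20.9 in MI-DAPA and 17.6 in MI-NS. Ccl6 came next, at 6.93 in MI-DAPA and 9.06 in MI-NS. Cxcl14, Ccl9, Cx3cl1 and Cxcl16 lay between 2.49 and 4.49 CPM per kb in MI-DAPA and between 4.31 and 7.39 in MI-NS. The more changed inflammatory ligands were low, with Cxcl10 at 0.210 CPM per kb in MI-DAPA and 0.713 in MI-NS, and Ccl2 at 1.07 in MI-DAPA and 2.43 in MI-NS.

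Summed over all 46 ligands, CPM, which give long genes more weight, were 280.9, 248.7 and 254.9 in MI-DAPA and 349.2, 326.5 and 323.9 in MI-NS, a ratio of 0.785. Without Cxcl12 the sums were 58.1, 71.8 and 71.9 in MI-DAPA and 113.8, 96.4 and 117.0 in MI-NS, a ratio of 0.616. Both sums were lower in every MI-DAPA library than in every MI-NS library. Receptor sums overlapped, at 14.6 ± 2.502 CPM in MI-DAPA and 20.04 ± 5.03 CPM in MI-NS (SD, n = 3 each). The sums for atypical receptors also overlapped, at 82.9 ± 9.35 CPM in MI-DAPA and 76.6 ± 5.77 CPM in MI-NS, and most of them was Ackr3. With Ackr3 the ratio was 1.08. Without Ackr3 the sums were 11.1, 14.6 and 12.9 in MI-DAPA and 20.6, 15.4 and 16.6 in MI-NS, a ratio of 0.734. Every MI-DAPA library was then below every MI-NS library. Ackr3 was the only tested member with all MI-DAPA libraries above all MI-NS libraries, so leaving it out favoured this outcome. Most of the remaining sum was Ackr4, whose own groups overlapped, and the rest included Ackr2, already called lower. The separation of this sum is therefore not a separate result.

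Other genes of the pathway were read from lists. Of 10 related genes outside the name rule (other chemokines and attractants, receptors, and the protease Dpp4, which is also in the protease list), 9 were tested and 2 fell, Rarres2 (the attractant chemerin) by 0.59 ± 0.11 and Mif by 0.32 ± 0.08 on the log2 scale, with edgeR adjusted p of 0.00964 and 0.0287. Ppbp, a further ligand of Cxcr2, had 12, 35 and 25 counts in MI-DAPA and 25, 15 and 14 counts in MI-NS, and its log2 fold change of 0.47 ± 0.41 did not pass the test (edgeR adjusted p 0.475). Of 25 genes for signalling from chemokine receptors, 23 were tested, 5 fell and 0 rose, with a median log2 fold change of -0.28. Those that fell included Arrb2, a receptor-binding arrestin, by 0.52 ± 0.13, Gnai3 by 0.46 ± 0.12, Ptk2b by 0.65 ± 0.17 and Gnb1 by 0.29 ± 0.08. Of 20 genes for known inducers of chemokine genes, 15 were tested, 3 fell and 0 rose, with a median of -0.27. These were Myd88 and Tlr2 of the Toll-like receptor pathway, by 0.42 ± 0.11 and 0.79 ± 0.21, and Relb, an NF-kB subunit, by 0.54 ± 0.16. Ifng and Il17a had no count, and Tnf had 5, 6 and 8 counts in MI-DAPA and 7, 12 and 5 in MI-NS.

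Leukocyte adhesion genes, which act after chemokines at the vessel wall, had 17 of 18 tested, of which 5 fell and 1 rose, with a median of -0.38. Icam1 fell by 0.92 ± 0.14, Jam3 by 0.59 ± 0.11, Icam2 by 0.58 ± 0.12, Selp by 2.24 ± 0.52 and Vcam1 by 0.91 ± 0.22 on the log2 scale, and Cd99l2 rose by 0.44 ± 0.07. Heparan sulfate genes, whose chains hold chemokines on cells, had 14 of 14 tested, with 3 lower and 2 higher and a median of -0.08. Sdc1 fell by 0.92 ± 0.14 and Gpc1 rose by 0.56 ± 0.10. Among 11 proteases that cut chemokines, 7 were tested and 2 fell, Mmp14 by 0.97 ± 0.14 and Mmp2 by 1.01 ± 0.17. All these calls had an edgeR adjusted p under 0.05, and the background beside them is the 7.83% of all tested genes called lower.

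Markers of the cells that make or read chemokines were compared as well. Over all tested genes 7.83% were lower and 8.69% higher, which is the background for each count here. In bulk tissue, fewer cells of a type and less RNA per cell cannot be told apart. Macrophage markers (9 of 9 tested, 2 lower, 0 higher) summed to 167 to 193 CPM in MI-DAPA and 215 to 250 CPM in MI-NS, C1qa and C1qb being the genes that fell. Adgre1, Cd68, Csf1r, Mrc1 and Fcgr1 had log2 fold changes of -0.42 to -0.25 and were not called. Lyve1 and Timd4 had log2 fold changes of 0.14 and 0.16 and were not called either. Fibroblast markers (6 of 6 tested, 4 lower, 0 higher) summed to 1752 to 2000 CPM in MI-DAPA and 2558 to 3037 CPM in MI-NS. The genes that fell were Col1a1, Col1a2, Dcn and Gsn, and Gsn alone averaged 1113 CPM in MI-DAPA and 1403 CPM in MI-NS. Pdgfra and Tcf21 did not pass the test (edgeR adjusted p 0.175 and 0.0979). Endothelial markers (5 of 5 tested, 3 lower) summed to 748 to 780 CPM in MI-DAPA and 896 to 987 CPM in MI-NS. Cardiomyocyte markers (6 of 6 tested, 0 lower, 3 higher) summed to 47480 to 50188 CPM in MI-DAPA and 39048 to 41715 CPM in MI-NS, so the defining genes of the labelled tissue were abundant in every library. The genes that rose were Myh6, Actc1 and Ryr2, and Myh6 alone averaged 25828 CPM in MI-DAPA and 19211 CPM in MI-NS. Tnnt2, Tnni3 and Myl2 had log2 fold changes of -0.01, 0.04 and 0.11 and were not called. The part of these shifts in the chemokine results was not tested.

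Markers of other white blood cells were compared in the same way. Neutrophil markers (3 of 6 tested, 0 called) summed to 3.53 to 5.76 CPM in MI-DAPA and 4.07 to 7.14 CPM in MI-NS, and the defining gene Ly6g had no count but 1, in MI-DAPA replicate 2. T cell markers (1 of 7 tested, 0 called) summed to 1.14 to 3.35 CPM in MI-DAPA and 2.08 to 2.26 CPM in MI-NS. Monocyte markers (1 of 4 tested, 0 called) summed to 40.0 to 45.6 CPM in MI-DAPA and 36.3 to 43.5 CPM in MI-NS. Most of this sum was F13a1, the gene tested, which averaged 42.4 CPM in MI-DAPA and 39.8 CPM in MI-NS (log2 fold change 0.09). Ly6c2 had 3, 2 and 4 counts in MI-DAPA and 9, 5 and 8 counts in MI-NS. Plac8 had 9, 4 and 7 counts in MI-DAPA and 27, 9 and 10 counts in MI-NS. Chil3 had 0, 0 and 1 counts in MI-DAPA and 8, 2 and 1 counts in MI-NS. None of the markers of NK cells or dendritic cells passed the filter. Venular endothelium (3 of 4 tested, 1 lower, Selp) summed to 47.7 to 60.6 CPM in MI-DAPA and 70.1 to 71.5 CPM in MI-NS. Most of this sum was Vwf, which averaged 53.6 CPM in MI-DAPA and 65.9 CPM in MI-NS. Neither Vwf nor Sele was called, with edgeR adjusted p of 0.0654 and 0.276.

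The number of members called depended on which libraries were used. With each of the 6 libraries left out in turn, 1 to 6 members were lower and 0 were higher. There were 2, 3 and 6 lower without MI-DAPA replicates 1, 2 and 3, and 4, 6 and 1 without MI-NS replicates 1, 2 and 3. The share of all tested genes called lower was 3.38%, 6.13% and 3.56% without MI-DAPA replicates 1, 2 and 3. It was 5.81%, 5.74% and 3.91% without MI-NS replicates 1, 2 and 3. Without MI-NS replicate 3, 1 of the 28 members was lower, a share no higher than that of all tested genes. With replicate 3 of both groups left out, 0 members and 24 of all tested genes were called, by edgeR on 2 libraries a group. Replicate 3 had the highest mitochondrial share of its group in both, 40.7% in MI-DAPA and 42.0% in MI-NS, against 34.3% to 37.6% in the other 4 libraries. With mitochondrial genes left out before scaling, and all 6 libraries in the fit, the same 8 members were lower. The log2 fold changes of the 8 called members stayed below 0 in every one of these fits. Since all their MI-DAPA libraries lay below all their MI-NS libraries, leaving libraries out could not change this sign.

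**Figure D5:**
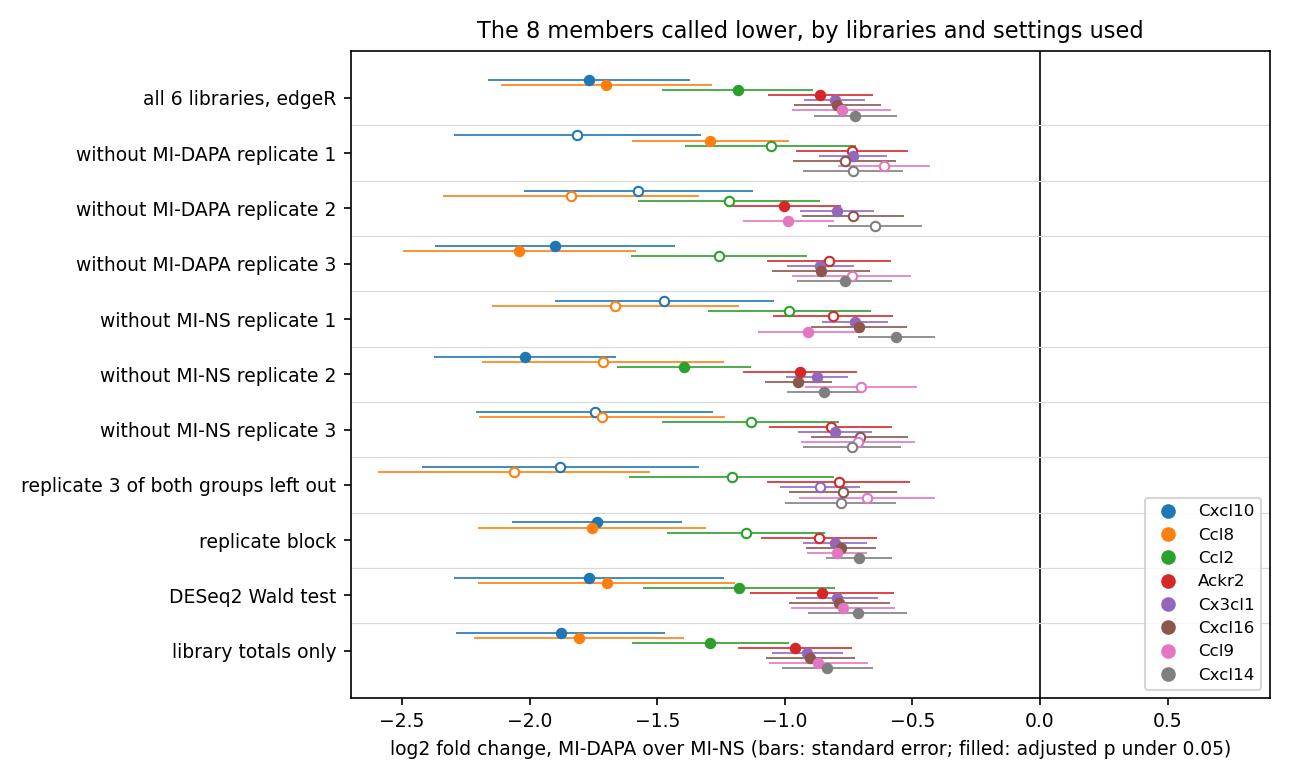
Log2 fold changes (MI-DAPA over MI-NS, with standard errors) of the 8 members called lower, with all 6 libraries, with libraries left out, and under other settings. Filled points have an adjusted p under 0.05. Every point lies left of 0, which for the fits with libraries left out follows from the groups of these members not overlapping. Cx3cl1 (purple) is filled in all fits except the fit without replicate 3 of both groups.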

How the data were processed

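Per the labels' protocols, mRNA was separated from total RNA of left ventricles and sequenced on an Illumina instrument. For each library the authors deposited raw read counts per gene, which were used unchanged. Per the submitters' processing notes the build was mm10 and the tools were StringTie 1.3.0 and edgeR. Which aligner and counting program were used, and whether strand was used, was not found in these sources. The names of the MI-NS files carry SA, and replicate 3 has file names of another style in both groups.

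The tests used edgeR 4.0.16 (R 4.3.3) on the deposited counts. Genes passed filterByExpr (minimum count 10, minimum total 15) and were scaled by TMM, and glmQLFit with glmQLFTest tested 13940 genes, with Benjamini-Hochberg adjustment and a threshold of 0.05. The common biological coefficient of variation was 0.139. An SE is the size of the log2 fold change over the root of its F statistic. No permutation test was used, since 3 libraries against 3 cannot give a two-sided p below 0.1. Counts of every pair of libraries differed beyond sampling noise, with a chi-square of at least 8.80 per degree of freedom. The steps were tested on simulated data. Alternatives were RLE, upper quartile or library-total scaling, DESeq2 1.42.0, other filters, mitochondrial genes left out, a replicate block and libraries left out.

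All members matched GENCODE M21 (GRCm38) by identifier, which gave exon lengths and strands. Overlaps were taken between whole gene spans, not exons, as listed with the counts. Named genes were all called members, a fixed set of well known members, and up to 4 called genes of each list plus its defining genes. Ccl1, Ccl17, Ccl20, Ccl22, Ccl25, Ccl27a, Cxcl3, Cxcl11, Cxcl15, Ccr3, Ccr4, Ccr8, Ccr9, Gnb1, Pdgfra, Ppbp, Sele, Selp, Tcf21, Vcam1 and Vwf were named after their values were seen. So were Adgre1, Cd68, Chil3, Csf1r, Fcgr1, Lyve1, Mrc1, Myl2, Timd4, Tnni3 and Tnnt2. Some genes that these rules cover are not reported here. The members and lists were chosen with earlier results of these data known.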

Additional observations from a re-analysis of the deposited data

How the results depend on the processing

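The 8 members called lower were the same 8 with RLE, upper quartile or library-total scaling, with DESeq2, with either other filter and with mitochondrial genes left out, and 0 were called higher under any alternative. Leaving out each library in turn gave 1 to 6 members lower, 1015 to 1860 genes called in all instead of 2304, and a median member log2 fold change of -0.77 to -0.47. With replicate 3 of both groups left out, 0 members and 24 genes were called, on fewer samples. Keeping genes with at least 1 CPM in 3 libraries left 23 members with a median of -0.52, since 5 low members were not tested. Library totals alone moved the median of all tested genes to -0.12 and gave 1249 lower and 410 higher calls, against 1092 and 1212 with TMM; the member median was then -0.82.

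Same-numbered libraries did not all deviate together (correlations of deviations 0.04, -0.01 and 0.11; only replicate 3 correlated best with its own number), so the numbers were not taken as pairs. With a replicate block 6 members were lower, the adjusted p (edgeR) of Ackr2 being 0.0512 and of Ccl2 0.0542. Depth limits the low members: no count in a library allows a level of up to 0.133 to 0.178 CPM.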
